A study of Homo sapiens with 10 samples.

Results

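Interferon-stimulated genes were followed in 2 mantle cell lymphoma lines, HBL2 and JEKO, as bortezomib-resistant (BR) cells and as the matched PT cells. The list held 47 genes, named by symbol, of which 46 had an array probe set annotated to that gene alone. STAT2 was not analysed here. For each gene the probe set with the highest mean over the 10 arrays was used. Of the 46 genes, 39 passed the filter on low values and were tested, among 14445 genes tested in all, and 7 stayed below it.

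Mantle cell lymphoma is a cancer of B cells, and bortezomib inhibits the proteasome, the complex that degrades ubiquitin-tagged proteins. The samples were HBL2 BR (3 arrays), HBL2 PT (3 arrays), JEKO BR (2 arrays) and JEKO PT (2 arrays), each made from total RNA of cells in logarithmic growth. The BR cells are labelled as having resistance induced by bortezomib, and PT is read here as the parental cells, since the labels give only the letters. The labels name no interferon treatment and do not say whether a BR line was 1 clone, whether bortezomib was present at harvest, or whether replicates came from cultures grown apart, and the p-values therefore cover the spread among these arrays alone, which may be technical.

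Type I interferon binds its receptor and activates the kinases JAK1 and TYK2, which phosphorylate STAT proteins. These join IRF9 in a complex that binds interferon-stimulated response elements in promoters and turns on antiviral genes, while IRF7 amplifies interferon production. Many of these genes are also transcribed at a low tonic level without added interferon, and in B cells their products include nucleic acid sensors, membrane proteins that block virus entry and ubiquitin-like modifiers.

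The element itself was looked for in the 250 bases before the start used for each gene in the RefSeq promoters (GRCh38.p14). It was read as the letters GAAA, 2 bases of any kind, and GAAA, or on the other strand TTTC, 2 bases of any kind, and TTTC. For IFI16, IFI27, ISG20 and XAF1 the start used lies inside the gene, not at its outer end. IFI27 and ISG20 are among the genes with a match. A promoter was found for 36 of the 46 genes, and 20 of the 36 (55.6%) held at least 1 match, which may overlap another. Of all 35116 promoters in the table, 1061 (3.02%) held one. The stretches below are shown because they belong to genes whose levels moved in the comparisons that follow, with the matched letters in capitals and 5′ to 3′ along the gene.
ISG15, chr1:1013364-1013419, plus strand: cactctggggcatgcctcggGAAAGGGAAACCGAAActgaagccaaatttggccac
IFI6, chr1:27672256-27672368, minus strand: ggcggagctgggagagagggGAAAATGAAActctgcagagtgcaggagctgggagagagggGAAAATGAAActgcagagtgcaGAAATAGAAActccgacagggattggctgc
IFITM3, chr11:320866-320932, minus strand: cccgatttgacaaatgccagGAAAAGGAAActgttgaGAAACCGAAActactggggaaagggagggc
IFIH1, chr2:162318685-162318863, minus strand: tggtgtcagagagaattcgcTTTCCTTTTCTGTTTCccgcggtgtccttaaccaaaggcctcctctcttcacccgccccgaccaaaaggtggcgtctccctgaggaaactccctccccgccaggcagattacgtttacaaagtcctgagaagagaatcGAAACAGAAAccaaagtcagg
IFI44, chr1:78649751-78649788, plus strand: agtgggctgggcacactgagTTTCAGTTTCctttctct
A match is a description of these letters, and matches were found in genes that moved and in genes that did not. Among the members with a promoter in the table, 3 of the 8 that were lower in HBL2 BR held a match, against 11 of the 20 that were tested and not called there.

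The deposited values are scores from 0 to 4.99 with a median of 0.73, and every array holds exactly the same set of values, so a score gives a probe set's rank on its array and a shift shared by most genes cannot be seen. The base of the log-like scale is not stated, and each change is a difference in those units, not a fold. Over the genes tested, arrays of a group correlated at 0.949 to 0.978. Beta-actin control probes (5′ value minus 3′ value), which reflect how intact the RNA was, lay between -1.04 and -0.69 in HBL2 BR, between -1.25 and -0.58 in HBL2 PT, at -0.76 and -1.01 in JEKO BR and at -0.70 and -0.82 in JEKO PT. JEKO BR replicate 2 had the lowest GAPDH 5′ minus 3′ value of all arrays, -0.64. The B cell markers MS4A1 (2.73 to 3.15 over the arrays), CD79A (2.12 to 2.62), CD79B (2.06 to 2.499) and PAX5 (2.03 to 2.78) and the mantle cell lymphoma marker CCND1 (2.49 to 3.33) were high in all groups. The other mantle cell lymphoma marker, SOX11, lay below all of these ranges in HBL2, and the B cell marker CD22 did not stay within them throughout HBL2 BR. The B cell markers moved with the HBL2 comparison: CD79A and CD79B fell in BR (-0.35 and -0.25, limma adjusted p = 9.84e-04 and 0.0173), and the sum of 5 B cell markers was 10.2 to 10.99 in HBL2 BR, 11.2 to 12.1 in HBL2 PT, 11.8 to 11.9 in JEKO BR and 11.5 to 11.7 in JEKO PT. CD22 was called higher in JEKO BR (0.35, limma adjusted p = 0.0421). The sum of CCND1 and SOX11 was 4.05 to 4.15 in HBL2 BR, 3.92 to 4.13 in HBL2 PT, 4.88 to 4.89 in JEKO BR and 5.17 to 5.36 in JEKO PT. Plasmacytoid dendritic cells are known for making much interferon, and of their 4 markers CLEC4C and IL3RA were below the filter, and the sum of the 4 was 2.37 to 2.47 in HBL2 BR, 2.55 to 3.41 in HBL2 PT, 2.58 to 3.20 in JEKO BR and 2.74 to 2.96 in JEKO PT. Of 5 myeloid markers with a probe set 3 were below the filter, LYZ fell in HBL2 BR (-0.59, limma adjusted p = 0.00875), and the sums were 1.85 to 2.35 in HBL2 BR, 2.20 to 3.18 in HBL2 PT, 2.06 to 2.90 in JEKO BR and 2.27 to 2.51 in JEKO PT. Of 8 T and NK cell markers 7 were below the filter, with sums of 3.80 to 3.98 in HBL2 BR, 3.99 to 4.36 in HBL2 PT, 4.09 to 4.46 in JEKO BR and 4.04 to 4.31 in JEKO PT. Of 6 stromal and epithelial markers KRT19 was below the filter and 0 were called within a line, also at limma's unadjusted p under 0.05. Their sum was 3.88 to 4.10 in HBL2 BR, 3.23 to 3.86 in HBL2 PT, 3.96 to 4.34 in JEKO BR and 4.48 to 4.77 in JEKO PT, without overlap of BR and PT in either line and opposite in direction to most interferon-stimulated genes. The part of these markers in the results was not tested.

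In HBL2, interferon-stimulated genes fell in the resistant cells. Of the 39 tested, 12 were lower in BR and 1, IFI44, was higher (limma, adjusted p under 0.05). Over all genes 6.90% were called lower and 4.94% higher. The median change of the 39 was -0.11 units, beside -0.00097 over all genes, and 32 of the 39 changes were below 0, called or not, beside 50.3% of all genes. Fewer cells with a transcript and less of it per cell cannot be told apart in these bulk samples. All BR arrays lay below all PT arrays for 19 of the 39 genes, beside 14.5% of all genes, and above them for 2, beside 12.8%. Since a gene can pass the filter through the group where it is high, the 26 members at or above the array median on all 10 arrays were also counted, and 10 of them were lower and 0 higher, beside 8.19% and 5.37% of all genes that met the same condition.

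**Figure D1:**
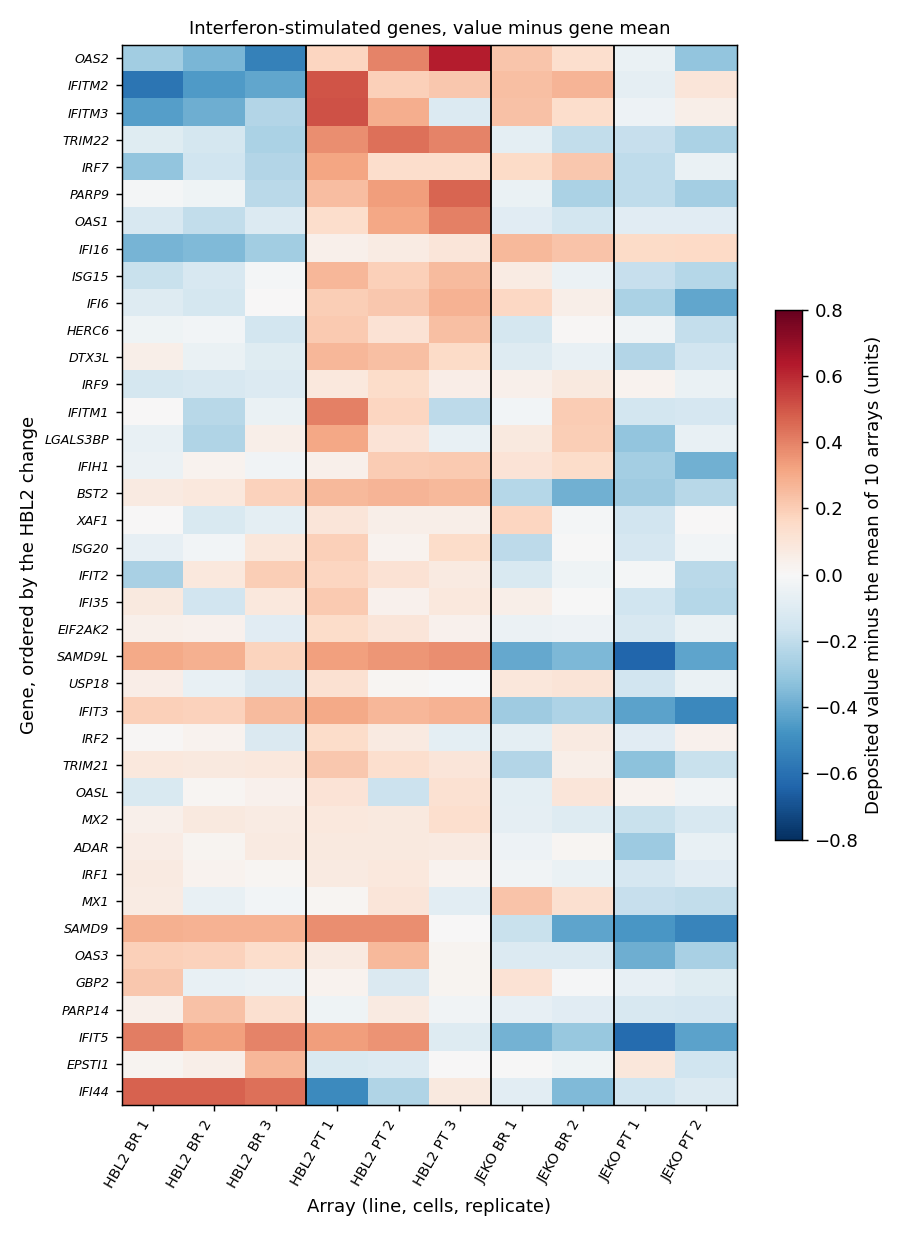
Deposited value of each of the 39 tested interferon-stimulated genes on each array, minus that gene's mean over the 10 arrays, with blue below and red above it. The median over the 39 genes was -0.025 to 0.011 on the HBL2 BR arrays, 0.083 to 0.17 on the HBL2 PT arrays, -0.046 and -0.011 on the JEKO BR arrays and -0.16 and -0.14 on the JEKO PT arrays.

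Among the transcription factors of the pathway, IRF7, the amplifier of interferon production, had values of 1.18, 1.34 and 1.26 on the HBL2 BR arrays, against 1.82, 1.64 and 1.64 on the HBL2 PT arrays. The 2 groups did not overlap, and the change was -0.44 ± 0.069 units (SE of the limma fit, adjusted p = 4.17e-04). IRF9, the DNA-binding subunit of the complex that type I interferon activates, was at 1.04, 1.05 and 1.07 in HBL2 BR, against 1.27, 1.33 and 1.23 in HBL2 PT. Its BR arrays lay close together below every PT array, with a change of -0.22 ± 0.059 (adjusted p = 0.0214), but the call was lost without HBL2 BR replicate 1 or 2 or HBL2 PT replicate 2 (highest adjusted p = 0.0951). IRF1, which interferon gamma induces, changed by -0.024 (adjusted p = 0.857) and IRF2, an antagonist of IRF1, by -0.071 (adjusted p = 0.626).

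The 2'-5'-oligoadenylate synthetases make the second messenger that activates RNase L on double-stranded RNA. OAS2 changed most of all 39 members in HBL2, at 0.84, 0.76 and 0.58 in HBL2 BR and 1.30, 1.52 and 1.75 in HBL2 PT. The highest BR array stayed well below the lowest PT array, and the change was -0.79 ± 0.10 (adjusted p = 6.79e-05). Its other probe sets fell less, by 0.41 and 0.27 units (adjusted p = 0.0031 and 0.038 in a fit over 27577 probe sets). OAS1 was at 0.95, 0.88 and 0.96 in HBL2 BR, against 1.21, 1.38 and 1.47 in HBL2 PT, a change of -0.43 ± 0.072 (adjusted p = 6.82e-04). OAS3, which lies between OAS1 and OAS2 in the genome, did not share this, with 1.11, 1.10 and 1.06 in HBL2 BR inside the PT range of 0.94 to 1.18 (change 0.056, adjusted p = 0.735). The OAS-like gene OASL overlapped as well, with a change of -0.044 (adjusted p = 0.842).

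The IFITM proteins sit in cell membranes and restrict virus entry. IFITM2 was at 1.37, 1.499 and 1.53 in HBL2 BR, against 2.45, 2.14 and 2.16 in HBL2 PT, a fall of 0.78 ± 0.081 units (adjusted p = 5.6e-06). IFITM3 was at 1.43, 1.48 and 1.64 in HBL2 BR, against 2.38, 2.16 and 1.76 in HBL2 PT, a fall of 0.58 ± 0.11 units (adjusted p = 0.00202). The PT arrays of IFITM3 spread more widely, and PT replicate 3 came close to the highest BR array. IFITM1 had 2.32, 2.10 and 2.26 in HBL2 BR and 2.72, 2.49 and 2.11 in HBL2 PT, groups that overlapped (change -0.21, adjusted p = 0.278). These 3 genes are near-identical in parts, and the probe sets of IFITM2 and IFITM3 are of the _x_at kind, which can bind related transcripts, so their falls cannot be fully told apart.

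Genes of ubiquitin and ubiquitin-like modification were mixed, with ISG15, TRIM22 and DTX3L lower and TRIM21, USP18 and HERC6 not called. ISG15, a ubiquitin-like protein that is joined to other proteins, was at 1.62, 1.66 and 1.78 in HBL2 BR, against 2.06, 1.99 and 2.05 in HBL2 PT, without overlap (change -0.35 ± 0.062, adjusted p = 0.00124). TRIM22, an antiviral ubiquitin ligase, was at 1.70, 1.66 and 1.55 in HBL2 BR, against 2.18, 2.24 and 2.20 in HBL2 PT. The PT arrays of TRIM22 lay close together and well above the BR arrays, with a change of -0.57 ± 0.062 (adjusted p = 9.36e-06). TRIM21, a cytosolic antibody receptor, changed by -0.069 (adjusted p = 0.64), and USP18, which removes ISG15 from proteins, by -0.083 (adjusted p = 0.56). DTX3L, a ubiquitin ligase that works with PARP9, had 1.9996, 1.90 and 1.85 in HBL2 BR and 2.22, 2.19 and 2.10 in HBL2 PT, a change of -0.26 ± 0.061 (adjusted p = 0.01), lost without HBL2 BR replicate 2 (adjusted p = 0.053). PARP9, its neighbour on the opposite strand, had 1.47, 1.44 and 1.27 in HBL2 BR and 1.73, 1.81 and 1.94 in HBL2 PT (change -0.44 ± 0.076, adjusted p = 9.84e-04). The other probe set of PARP9 did not show this, with a change of -0.050 (adjusted p = 0.86 over the 27577 probe sets). PARP14, the next member along the chromosome, changed by 0.13 (adjusted p = 0.245).

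Among sensors and other effectors, IFI16, a sensor of DNA, was at 2.496, 2.52 and 2.59 in HBL2 BR, against 2.91, 2.94 and 2.97 in HBL2 PT. Neither group spread by much, and the change was -0.40 ± 0.053 (adjusted p = 6.84e-05), and its other 2 probe sets fell by 0.37 and 0.40. IFI6, a small membrane protein, was at 0.70, 0.66 and 0.80 in HBL2 BR, against 0.996, 1.02 and 1.08 in HBL2 PT (change -0.31 ± 0.083, adjusted p = 0.0213). Its call was lost without HBL2 PT replicate 2 or 3 or HBL2 BR replicate 1 or 2 (highest adjusted p = 0.0945). IFI44 ran the other way, with 1.13, 1.13 and 1.10 in HBL2 BR, all above the HBL2 PT values of 0.15, 0.42 and 0.74 (change 0.68 ± 0.13, adjusted p = 0.0019). The second IFI44 probe set gave 0.36 (adjusted p = 0.21 over the 27577 probe sets). IFI44 was at or above the array median on only 4 arrays, among them the 3 of HBL2 BR.

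The 26 members not called in HBL2 had changes from -0.26 to 0.19. HERC6 was the lowest of these (-0.26, adjusted p = 0.113), and it passed the filter only through the 3 HBL2 PT arrays. The antiviral GTPases MX1 and MX2 changed by -0.016 and -0.038 (adjusted p = 0.92 and 0.746), the RNA-activated kinase gene EIF2AK2 by -0.099 (adjusted p = 0.362), the RNA editing enzyme gene ADAR by -0.024 (adjusted p = 0.87) and BST2, which tethers budding viruses, by -0.15 (adjusted p = 0.145). EPSTI1 had the highest change of those not called (0.19, adjusted p = 0.152), and XAF1, a promoter of apoptosis (-0.13, adjusted p = 0.365), the exonuclease gene ISG20 (-0.12, adjusted p = 0.336), IFI35 (-0.11, adjusted p = 0.451) and the GTPase gene GBP2 (0.060, adjusted p = 0.80) lay between. Another XAF1 probe set was called lower (-0.33, adjusted p = 0.044 over the 27577 probe sets), and the remaining one gave 0.13 (adjusted p = 0.48). Without _x_at and _s_at probe sets, which represent 9 of the 13 called genes, 29 members remained and 5 were called, all lower. Of all 11674 genes tested in that setting, 10.2% were called in either direction.

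**Figure D2:**
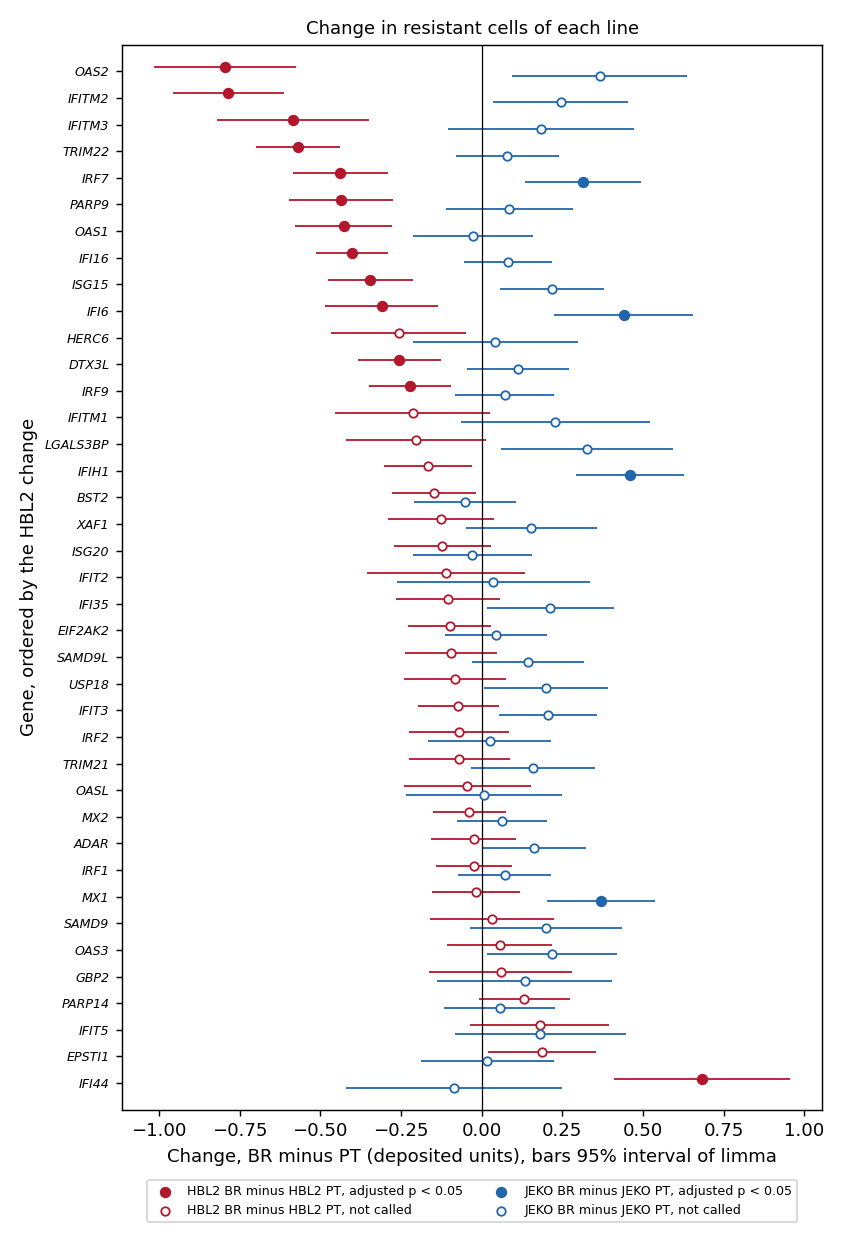
Change in BR against PT cells for each of the 39 tested genes, in deposited units, for HBL2 in red and JEKO in blue, with the 95% interval of the limma fit and filled points for adjusted p under 0.05. Of the filled red points 12 lie below 0 and 1 above it, and the 4 filled blue points lie above 0.

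In JEKO, the called members moved upward. Of the 39 tested, 4 rose in BR (IFIH1, IFI6, MX1 and IRF7), beside 2.58% of all genes called higher, and 0 fell, beside 1.73% called lower. With limma's unadjusted p under 0.05 the counts were 13 higher and 0 lower. The share of all genes at that unadjusted cutoff was not counted, here or for the unadjusted counts further on, so they cannot be set against a background. The median change was 0.14 units, beside 0.012 over all genes, and 35 of the 39 changes were above 0, called or not, beside 53.4% of all genes. Both BR arrays lay above both PT arrays for 26 of the 39 genes and below them for 0, beside 28.3% and 22.5% of all genes.

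IFIH1, which encodes the RNA sensor MDA5, was at 1.42 and 1.46 in JEKO BR, against 1.04 and 0.93 in JEKO PT. The gap between the groups was larger than the spread within them, and the change was 0.46 ± 0.079 (adjusted p = 0.00328). With the median over the probe sets of IFIH1 the change was 0.29 (adjusted p = 0.105). IFI6 was at 0.97 and 0.85 in JEKO BR, against 0.55 and 0.39 in JEKO PT (change 0.44 ± 0.10, adjusted p = 0.0218). The GTPase gene MX1 had 1.66 and 1.56 in JEKO BR and 1.25 and 1.23 in JEKO PT (change 0.37 ± 0.079, adjusted p = 0.014). IRF7 had 1.65 and 1.71 in JEKO BR and 1.29 and 1.45 in JEKO PT, a change of 0.31 ± 0.085 close to the threshold (adjusted p = 0.0476) that was not called in 14 of 21 other settings. The 4 genes showed no overlap of their BR and PT arrays.

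These JEKO calls rest on few arrays. Leaving out JEKO BR replicate 1 gave a count of 1. A fit lacking the first JEKO PT array called 2 members, and one lacking the other JEKO PT array called 1. Without JEKO BR replicate 2, the array with the lowest GAPDH value, limma called 0 members, with 8 higher and 0 lower at an unadjusted p under 0.05, and the median change stayed at 0.13. Of the 35 members not called, changes ran from -0.086 to 0.37. OAS2 was the highest of these, at 1.35 and 1.26 in JEKO BR and 1.07 and 0.80 in JEKO PT (change 0.37, 95% interval 0.096 to 0.64, adjusted p = 0.127). LGALS3BP, a secreted glycoprotein, changed by 0.33 (adjusted p = 0.177) and ISG15 by 0.22 (adjusted p = 0.127).

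**Figure D3:**
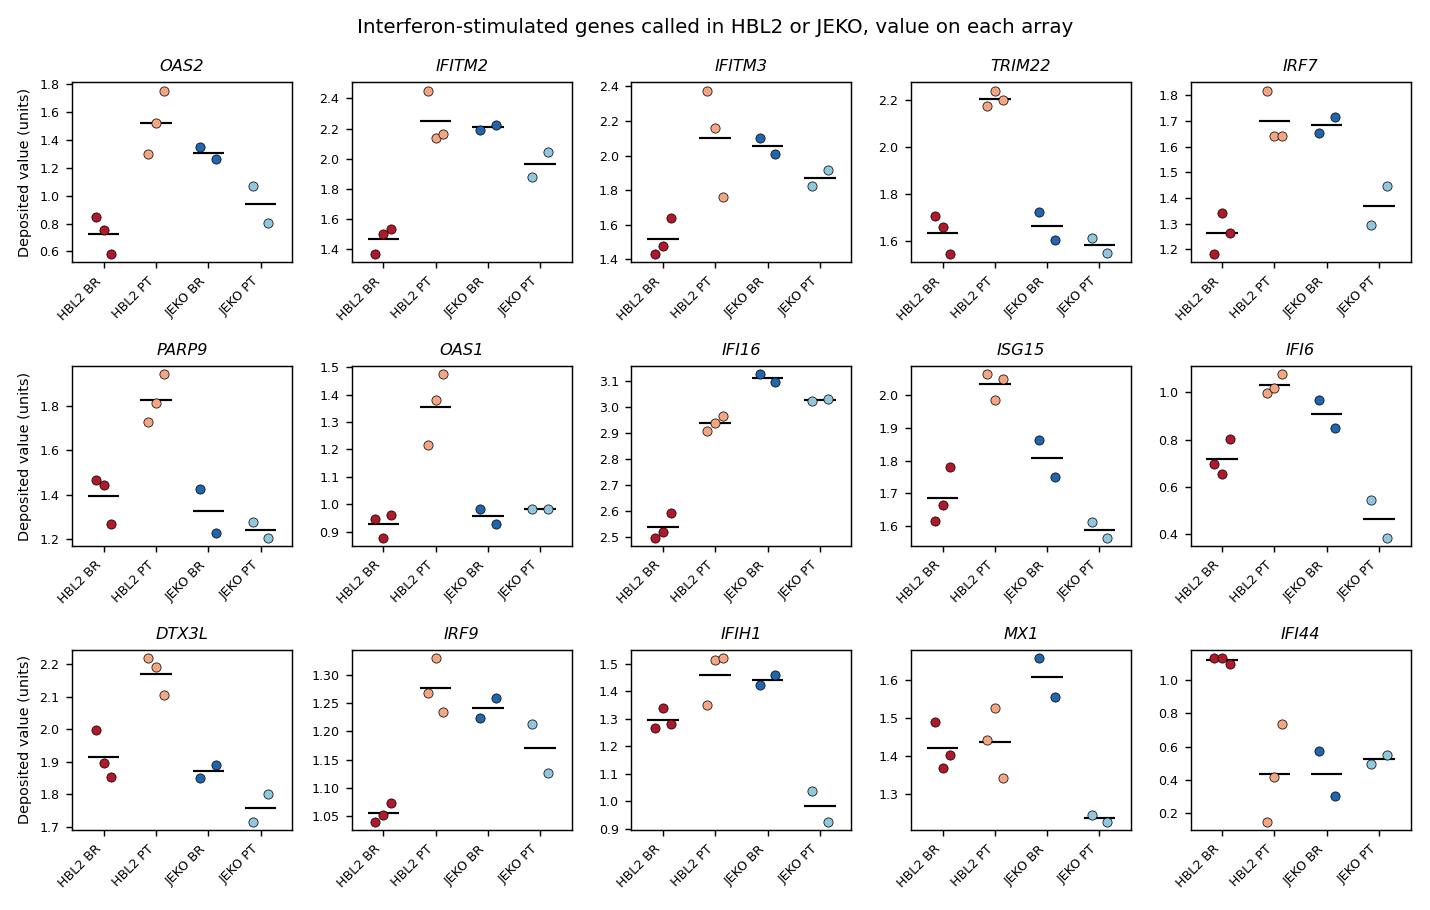
Deposited value on each array for the 15 interferon-stimulated genes called in HBL2 or in JEKO, with horizontal lines at the group means and a separate vertical scale in each panel. In IRF7 and IFI6 the HBL2 BR points lie below the HBL2 PT points and the JEKO BR points above the JEKO PT points.

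The members called in both lines were 2, IRF7 and IFI6, and in each the direction was opposite, lower in HBL2 BR and higher in JEKO BR. Calls in both lines were not counted over all genes, so these 2 have no background beside them. The difference between the lines was tested directly as the HBL2 change minus the JEKO change, and 14 of the 39 members passed, 13 below 0 and IFI44 above it. Over all genes 5.80% were called below 0 and 2.97% above it, and 36 of the 39 differences were below 0, called or not, beside 52.1% of all genes. OAS2 had the largest difference, -1.16 ± 0.16 units (adjusted p = 3.27e-04), followed by IFITM2 (-1.03 ± 0.13, adjusted p = 1.02e-04). The other 2 OAS2 probe sets gave smaller differences that were not called, -0.37 and -0.25 (adjusted p = 0.092 and 0.30 over the 27577 probe sets), and 1 of them changed by -0.16 in JEKO (adjusted p = 0.46). Of the 12 members that fell in HBL2, 11 passed this test, and IRF9 did not (-0.29, adjusted p = 0.0659). The tested difference contains the HBL2 change, so members picked for a fall there tend to pass. The same share was not counted over all genes lower in HBL2 BR. The OAS1 call was lost in 14 of 21 other settings and the IFI44 call in 9 of 20, with adjusted p up to 0.117 and 0.142 when 1 array was left out. MX1 and IFIH1 passed this test without being called in HBL2, with differences of -0.39 and -0.63 (adjusted p = 0.0247 and 0.00109). The MX1 and DTX3L calls were lost in 6 of 21 other settings each, and the IFIH1 call with the median over probe sets. Of the other 2 IFI16 probe sets, 1 was called (-0.45, adjusted p = 0.0083 over the 27577 probe sets) and 1 was not (-0.33, adjusted p = 0.070). Counting signs alone, 29 of the 39 members were below 0 in HBL2 and above 0 in JEKO, beside 27.1% of all genes. The count that passed was 9 without JEKO PT replicate 1 and 9 without JEKO BR replicate 1.

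Interferon-stimulated genes also differed between the PT cells of the lines. Of the 39 members, 20 were higher in HBL2 PT than in JEKO PT and 0 were lower (26 and 0 by limma at an unadjusted p under 0.05), beside 14.0% of all genes called higher and 9.31% called lower. The median difference was 0.29 units, beside 0.014 over all genes, and 36 of the 39 were above 0, called or not, beside 52.8% of all genes. This comparison shares its arrays with those within the lines, so the values are given side by side.

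SAMD9L, an antiviral and growth-restraining factor, was at 1.56, 1.58 and 1.60 in HBL2 PT, against 0.59 and 0.81 in JEKO PT, the largest of the differences (0.88 ± 0.075, adjusted p = 4.42e-07). Its neighbour and relative SAMD9 was at 1.62, 1.62 and 1.25 in HBL2 PT, against 0.78 and 0.72 in JEKO PT (0.75 ± 0.10, adjusted p = 6.02e-05). The IFIT proteins bind viral RNA, and IFIT3 was at 1.49, 1.45 and 1.47 in HBL2 PT and 0.76 and 0.68 in JEKO PT (0.75 ± 0.066, adjusted p = 5.35e-07). IFIT5 was at 1.35, 1.37 and 0.91 in HBL2 PT and 0.39 and 0.58 in JEKO PT (0.72 ± 0.11, adjusted p = 2.39e-04). IFIT5 passed the filter only through the 6 HBL2 arrays, so a gene chosen in that way had to be higher in HBL2. These 4 genes were named for their large differences, and none overlapped between the PT cells of the lines. The share of all genes without such an overlap was not counted. TRIM22 (0.62), PARP9 (0.59), OAS2 (0.59), IFI6 (0.56), BST2 (0.52), IFIH1 (0.48), ISG15 (0.44) and OAS3 (0.44) were also higher in HBL2 PT, with adjusted p of 0.00165 or less. The other OAS2 probe sets gave 0.15 and 0.031, not called (adjusted p = 0.26 and 0.86 over the 27577 probe sets). The other PARP9 probe set gave 0.20 (adjusted p = 0.27 in the same fit). With the median over probe sets the OAS2 and IFIH1 calls were lost.

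In the resistant cells, the balance between the lines was different. Of the same 39 members, 8 were higher and 6 lower in HBL2 BR than in JEKO BR, and the median difference was -0.015 units, beside 0.006 over all genes. The share called was 14.1% of all genes in each direction. Called or not, 21 of the 39 lay below 0 and 18 above it, beside 48.7% and 51.3% of all genes. Of the 20 members that were higher in HBL2 PT, 6 were also higher in HBL2 BR, 3 were lower there and 11 were not called. The same split was not counted for all genes called higher in HBL2 PT, so these counts have no background beside them. The 6 were SAMD9L (0.64), SAMD9 (0.58), IFIT5 (0.72), IFIT3 (0.47), BST2 (0.42) and OAS3 (0.28). The other IFIT3 probe set gave 0.23, not called (adjusted p = 0.096 over the 27577 probe sets), and the OAS3 call was lost in 7 of 20 other settings. The 3 that were higher in HBL2 PT and lower in HBL2 BR were OAS2 (-0.58 ± 0.12, adjusted p = 0.00141), IFITM2 (-0.74 ± 0.090, adjusted p = 1.37e-05) and IRF7 (-0.42 ± 0.077, adjusted p = 6.4e-04). Between the PT cells IFITM2 differed by 0.29 (adjusted p = 0.029) and IRF7 by 0.33 (adjusted p = 0.00533). That PT call was lost in 5 of 20 other settings for IFITM2, among them the fit of the 2 groups alone, and in 1 of 20 for IRF7. The other OAS2 probe sets gave -0.22 and -0.22, not called (adjusted p = 0.079 and 0.089 over the 27577 probe sets). IFI16 (-0.58), IFITM3 (-0.54) and IRF9 (-0.19) were the other members lower in HBL2 BR, and IFI44 (0.68) and PARP14 (0.21) were the other members higher there. The IRF9 call was lost in 13 of 21 other settings and the PARP14 call in 9 of 21, with adjusted p up to 0.222 and 0.189 when 1 array was left out.

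**Figure D4:**
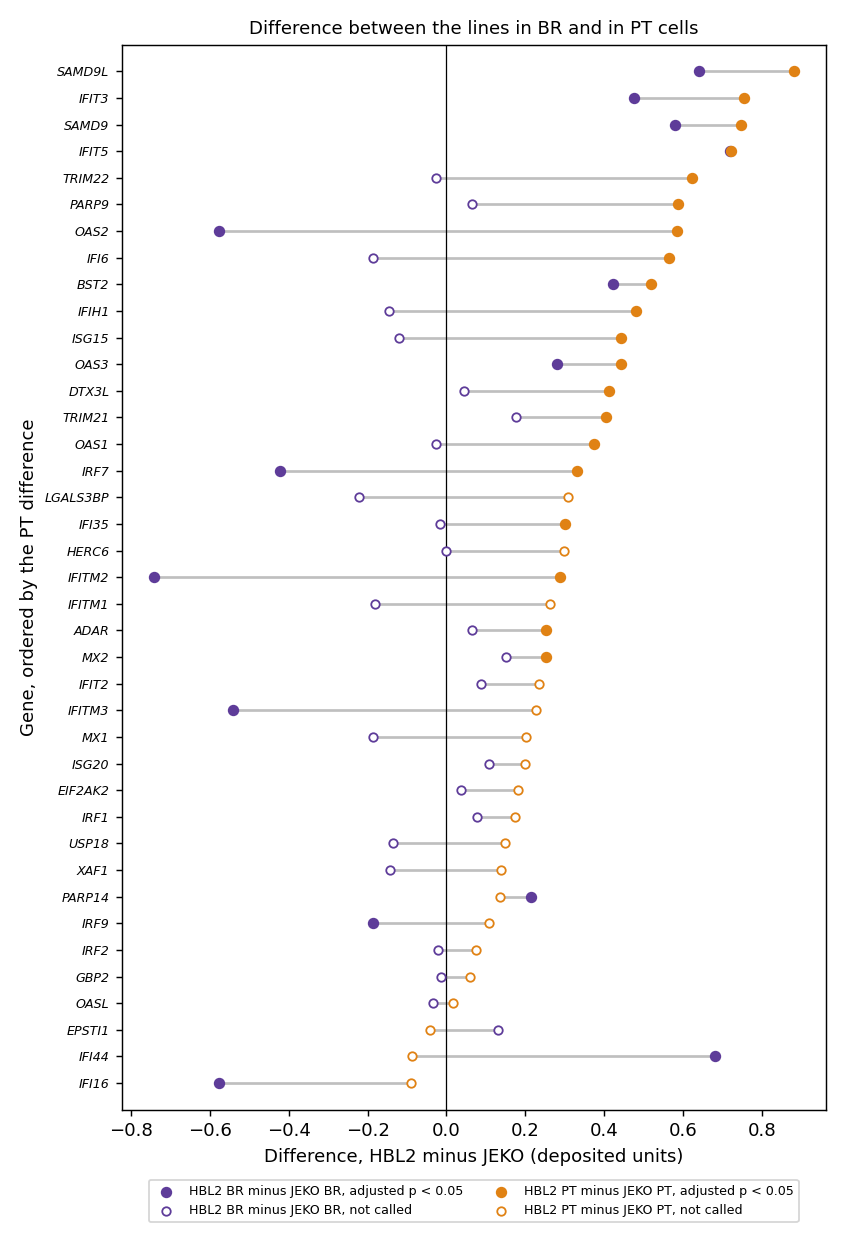
Difference between HBL2 and JEKO for each of the 39 tested genes, in deposited units, in BR cells (purple) and in PT cells (orange), with filled points for adjusted p under 0.05 and a grey line joining the pair. The 20 filled orange points all lie above 0, while 8 filled purple points lie above 0 and 6 below it.

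Members that lie next to each other in the genome did not always move together. IFI44 rose in HBL2 BR, while its neighbour and relative IFI44L was below the filter with 0.25, 0.06 and 0.53 in HBL2 BR and 0.35, 0.50 and 0.37 in HBL2 PT. SAMD9 and SAMD9L both differed between the lines, yet neither was called in HBL2 (0.032 and -0.096, adjusted p = 0.883 and 0.433) or in JEKO (0.20 and 0.14, adjusted p = 0.382 and 0.40). In the IFIT group, IFIT2, IFIT3 and IFIT5 changed by -0.11, -0.072 and 0.18 in HBL2 and by 0.037, 0.21 and 0.18 in JEKO, all without a call.

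The 7 members below the filter included genes that respond strongly to added interferon in many cells: IFIT1, RSAD2 (viperin), CMPK2, IFI27, IFI44L, HERC5 and GBP1. Their values ran from 0.034 to 0.87 over the 10 arrays, and the lower part of that range lies near the bottom of the scale. In HBL2 the BR and PT arrays overlapped for 7 of the 7, and in JEKO for 5. RSAD2 was at 0.34 and 0.49 in JEKO BR and 0.51 and 0.69 in JEKO PT, and IFI27 was at 0.45 and 0.45 in JEKO BR and 0.66 and 0.46 in JEKO PT, and these 2 of 7 did not overlap, beside 22.5% of all genes tested with both BR arrays below both PT arrays.

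The rest of the pathway was read from 5 further lists. Of 61 other interferon-stimulated genes, 54 were tested. In HBL2, 15 of the 54 (27.8%) were lower in BR, beside 6.90% of all genes, led by the carbohydrate-binding protein gene LGALS9 (-0.90 ± 0.098, adjusted p = 9.83e-06), the nuclear body gene SP140 (-0.80 ± 0.069, adjusted p = 8.47e-07), NLRC5, the transactivator of MHC class I genes (-0.52, adjusted p = 5.12e-04), and the nuclear body gene SP100 (-0.44, adjusted p = 1.13e-04). PLSCR1 (0.68, adjusted p = 2.82e-05) and PNPT1 (0.19, adjusted p = 0.0446) were higher, 3.7% of the 54 beside 4.94% of all genes. In JEKO, TRIM14 rose (0.28, adjusted p = 0.0434), 1 of 54 beside 2.58% of all genes, and 0 fell, with 15 higher and 1 lower by limma at an unadjusted p under 0.05. Between the PT cells, 26 of the 54 (48.1%) were higher in HBL2 and 0 lower (31 and 0 unadjusted), beside 14.0% and 9.31% of all genes.

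Of 7 tested interferon and receptor genes, 1 was lower in HBL2 BR, beside 6.90% of all genes. IFNGR2, a chain of the interferon gamma receptor, was that gene (-0.30, adjusted p = 0.00562), and 0 were called in JEKO (0 higher and 1 lower by limma at an unadjusted p under 0.05). The type I receptor genes IFNAR1 and IFNAR2 changed by -0.17 and -0.012 in HBL2 (adjusted p = 0.119 and 0.933) and by 0.036 and 0.084 in JEKO (adjusted p = 0.88 and 0.604). The interferon genes IFNA1, IFNA2, IFNB1 and IFNG stayed below the filter. IFNL1, an interferon lambda gene, passed it, at 0.66 to 0.79 in HBL2 BR, 0.72 to 0.82 in HBL2 PT, 0.33 and 0.48 in JEKO BR and 0.68 and 0.78 in JEKO PT. It was not called in HBL2 (-0.069, adjusted p = 0.729) or in JEKO (-0.33, adjusted p = 0.132), and was higher in HBL2 BR than in JEKO BR (0.31, adjusted p = 0.0369). JAK1 and TYK2 changed by 0.14 and -0.00079 in HBL2 and by 0.097 and 0.079 in JEKO, without a call (adjusted p = 0.203, 0.997, 0.592 and 0.729). Of 11 signalling genes tested, the phosphatase gene PTPN6 was the one called, lower in HBL2 BR (-0.35, adjusted p = 0.0012), 9.09% of the 11 beside 6.90% of all genes.

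Of 14 tested sensors and adaptors, STING1, the adaptor of DNA sensing (-0.35, adjusted p = 0.0149), RIGI, an RNA sensor (-0.30, adjusted p = 0.00321), and TLR9, the endosomal receptor of CpG DNA (-0.25, adjusted p = 0.0203), fell in HBL2 BR, 3 of 14 beside 6.90% of all genes. TRAF3, a signalling adaptor, rose there (0.32, adjusted p = 0.00376), 1 of 14 beside 4.94% of all genes. None was called in JEKO, where limma's unadjusted p was under 0.05 for 0 of the 14. Of 6 other IRF genes, IRF5, which drives inflammatory genes downstream of Toll-like receptors, was lower in HBL2 BR (-0.42, adjusted p = 1.47e-04) and higher in JEKO BR (0.30, adjusted p = 0.028). IRF8, a factor of B cell and myeloid development, fell in HBL2 BR (-0.39, adjusted p = 6.55e-04), IRF4, a factor of plasma cell development, rose there (0.43, adjusted p = 0.00105), and IRF3, which triggers interferon genes, changed by -0.066 in HBL2 and 0.11 in JEKO (adjusted p = 0.659 and 0.579). In HBL2, 2 of the 6 were thus lower and 1 higher, beside 6.90% and 4.94% of all genes. In JEKO, 1 of the 6 was higher, beside 2.58% of all genes.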

How the data were processed

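Total RNA of the cells was hybridised to Affymetrix HG-U133 Plus 2.0 arrays, 1 sample per array. Per the submitters' processing notes the authors used MAS5, for which no version is named, and what followed is not given in the sources used here. Values as deposited are scores on a log-like scale of unstated base with 1 shared distribution on every array, so they were tested as they stand, and a log2 step planned for linear intensities was not applied. For each of 19775 genes the probe set with the highest mean was kept, and 14445 genes that reached their array's 50th percentile on 2 or more arrays were fitted in limma 3.58.1 (R 4.3.3), with 4 group means, an intensity trend and Benjamini-Hochberg adjustment over all of them, called at an adjusted p under 0.05. The number of arrays limits the precision. Probe sets were named from GEO's platform annotation, of which 41091 carry 1 gene symbol, and the 1801 with several were left out. The members and lists were chosen with earlier results of these data known. Array values are given for members called within a line or in the difference between the lines, up to 12 called members are named between the lines and up to 4 from each pathway list, and genome neighbours are named whether called or not. Replicate numbers were not treated as pairs in the main fit. After each gene's group mean was subtracted, same-numbered BR and PT arrays correlated at 0.014, 0.14 and 0.0063 in HBL2 and at 0.079 in JEKO. In groups this small the deviations of a group's arrays depend on each other, so these correlations cannot settle whether the numbers pair the samples. Alternatives changed the filter, probe set choice, scale, trend, weights, covariates, samples in the fit and single arrays.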

Additional observations from a re-analysis of the deposited data

Results flagged for a closer look

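For 14 interferon-stimulated genes the BR against PT change differed between the lines by the limma test of that difference, in deposited units. The HBL2 change minus the JEKO change was below 0 for OAS2 (-1.16), IFITM2 (-1.03), IFITM3 (-0.77), IRF7 (-0.75), IFI6 (-0.75), TRIM22 (-0.65), IFIH1 (-0.63), ISG15 (-0.56), PARP9 (-0.52), IFI16 (-0.48), OAS1 (-0.40), MX1 (-0.39) and DTX3L (-0.37), and above 0 for IFI44 (0.77). The calls of OAS2, IFITM2, IRF7, IFI6, TRIM22 and ISG15 were kept in every alternative run. Those of OAS1, IFI44, MX1 and DTX3L were lost in 14 of 21, 9 of 20, 6 of 21 and 6 of 21. The other 2 OAS2 probe sets gave -0.37 and -0.25, not called in a fit of all probe sets (adjusted p = 0.092 and 0.30).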

How the results depend on the processing

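Of the 13 members called in HBL2, 8 were called in every alternative run, as were 0 of 4 in JEKO, 6 of 14 for the difference between the lines, 12 of 20 between the PT cells and 10 of 14 between the BR cells. Without _x_at and _s_at probe sets, 29 members were left. Of these, 5 were called in HBL2, 3 in JEKO, 5 for the difference, 12 between the PT cells and 7 between the BR cells. The shares of all genes called in that setting were 10.2%, 4.03%, 7.5%, 20.5% and 25.1%. The difference for PARP9 turned to 0.0033 (limma adjusted p = 0.995), since another probe set then stood for the gene. With the median over probe sets 2 members were called in JEKO. Leaving out 1 array at a time gave 10 to 14 members in HBL2, 0 to 4 in JEKO, 9 to 16 for the difference, 15 to 26 between the PT cells and 11 to 16 between the BR cells. Without JEKO BR replicate 2 the share of all genes called in JEKO was 0.831%, against 4.31% with all arrays; the cause was not tested. The fit with the replicate number as a block called 13 members in HBL2, 3 in JEKO and 15 for the difference. In the deviations from the group means, not every array correlated best with its own number. No block could be fitted between the lines. A JEKO group left with 1 array is assumed to vary like the other groups.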
